A study of Mus musculus with 8 samples.

Results

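The genes described here are 8 genes for abundant secretory products of the mouse prostate: 9530053A07Rik, Gm10935, 9530003J23Rik, Gm5615, Tgm4, Pbsn, Msmb and Spink3. They were found by symbol in a table of 27036 genes, and all 8 were among the 14034 genes with enough reads to be tested. They were chosen by their measured abundance, with earlier results of these libraries known, so their levels and the size of their differences are given as a description of these tissues.

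Bulk RNA-seq, which averages over all cells of a piece of tissue, was done on 8 libraries, each from a different animal. WT was normal prostate from 3 WT-control mice, which the study's methods describe as carrying Osr1Cre with the R26mTmG reporter. PIN, prostatic intraepithelial neoplasia, was from 3 hARtg-Osr1Cre mice, and PCa, prostate cancer, was from 2 mice of the same genotype. In hARtg-Osr1Cre mice a human transgene in the Rosa26 locus is switched on by Cre made from the Osr1 promoter, so Cre and the reporter were shared by all groups and only the transgene was not. All mice were of a mixed C57BL/6 and 129S1/SvImJ background. The PIN and PCa tissues were picked under the microscope as holding mostly atypical or tumor cells. The study describes the WT mice as matched for age and PIN as arising at a younger age than PCa, but the age of each mouse and the lobe of the prostate are not given in the sources used here, and each PCa library is a tumor from 1 animal.

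Libraries held between 21751803 and 29730420 counts on genes. The luminal keratin Krt8, which marks the secretory cells of the gland, was detected in all 8 libraries, at 149 to 973 normalized CPM (CPM, counts relative to a library size that was adjusted by the trimmed mean of M-values). The library numbers in the labels form 3 series, with WT 1 alone in one, WT 2 and WT 3 in another and every PIN and PCa library in the third. The labels do not call these series batches. PCa against PIN lies within 1 series, while for the comparisons with WT the series and the group cannot be told apart.

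The luminal cells of the prostate make the fluid that is added to sperm at ejaculation, and androgens keep this secretion going. In the mouse the lobes of the prostate and the neighbouring seminal vesicles differ in the proteins they release. Tgm4 encodes the prostate transglutaminase, which cross-links seminal vesicle proteins into the copulatory plug. Pbsn encodes probasin, a lipocalin whose androgen-dependent promoter is widely used to drive transgenes in the prostate. Msmb encodes beta-microseminoprotein, and Spink3 encodes a serine protease inhibitor of the Kazal type that binds sperm.

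The upstream sequences of the 4 genes with an entry in RefSeq's promoter set (GRCm38.p6) are shown because these genes moved together and because androgen control is known for this class of gene. Each is the 250 bases before the transcription start, 5′ to 3′ on the gene's strand. Capitals mark matches to the androgen response hexamer TGTTCT or its reverse complement AGAACA and to the TATA box letters TATAAA, searched on both strands. The 9530053A07Rik window is chr7:28129216-28129465 on the plus strand and the Tgm4 window is chr9:123034491-123034740 on the plus strand. The 9530003J23Rik window is chr10:117238682-117238931 on the minus strand and the Pbsn window is chrX:77853501-77853750 on the minus strand. Gm10935, Gm5615, Msmb and Spink3 are named only.
9530053A07Rik: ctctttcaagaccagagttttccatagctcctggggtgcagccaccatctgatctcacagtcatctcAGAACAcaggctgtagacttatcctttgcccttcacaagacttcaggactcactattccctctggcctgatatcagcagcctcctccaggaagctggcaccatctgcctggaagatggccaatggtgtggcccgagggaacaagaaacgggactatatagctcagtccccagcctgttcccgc
Tgm4: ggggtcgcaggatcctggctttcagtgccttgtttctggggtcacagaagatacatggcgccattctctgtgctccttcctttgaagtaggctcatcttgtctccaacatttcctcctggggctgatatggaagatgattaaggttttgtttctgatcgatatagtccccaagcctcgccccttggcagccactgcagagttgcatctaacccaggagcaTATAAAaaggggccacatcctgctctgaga
9530003J23Rik: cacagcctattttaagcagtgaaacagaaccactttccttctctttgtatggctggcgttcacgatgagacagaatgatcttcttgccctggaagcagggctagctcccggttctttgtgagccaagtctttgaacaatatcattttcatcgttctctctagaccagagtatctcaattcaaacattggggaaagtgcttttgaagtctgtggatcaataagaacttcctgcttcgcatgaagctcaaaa
Pbsn: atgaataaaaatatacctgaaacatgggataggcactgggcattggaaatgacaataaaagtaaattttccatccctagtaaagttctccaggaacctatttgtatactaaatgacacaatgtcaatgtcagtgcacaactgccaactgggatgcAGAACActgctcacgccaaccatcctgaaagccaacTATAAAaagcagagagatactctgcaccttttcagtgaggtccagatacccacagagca

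A hexamer on the opposite strand lay at -183 to -178 from the start of 9530053A07Rik, and another at -95 to -90 in Pbsn. The Pbsn window also held TATAAA at -59 to -54, and the Tgm4 window held it at -30 to -25. The 9530003J23Rik window held neither. Both motifs are common, the hexamer being in 16.1% of 32817 promoter windows of this length and TATAAA in 12.4%. The full androgen response element, the hexamer and its inverted repeat with 3 bases between, was in 3 of all windows and in none of these 4. The full element contains the hexamer, so a window with it also counts for the hexamer. These are matches of letters only.

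In the coordinates of the count table (mm9), 9530053A07Rik lies at chr7:28914485-28949830 on the plus strand and Gm10935 at chr7:28884679-28887506 on the minus strand. The whole of Gm10935 lies inside Fcgbp, the gene for an IgG Fc-binding protein of mucus, which runs on the other strand. Of its 2828 exon bases, 727 are shared with Fcgbp exons, and since the strand setting of the counting is not stated, reads there cannot be told apart. Transcripts of 9530053A07Rik and Fcgbp are 85.6% identical over 5913 bases, so reads could also be split between these near copies. Tgm4 lies at chr9:122943857-122976679 on the plus strand and shares 830 of its 3936 exon bases with Zdhhc3 on the other strand. 9530003J23Rik lies at chr10:116669293-116675759 on the minus strand, is listed by RefSeq under the synonym Lyzf1, and has a transcript 72.1% identical to that of the lysozyme gene Lyz1 over 427 bases. Gm5615 lies at chr9:36339988-36349548 on the minus strand, and 162 bases of its transcript are 86.4% identical to Pate4, a member of the prostate and testis expressed family. Pbsn lies at chrX:75083240-75098962 on the minus strand, Msmb at chr14:32955212-32971556 on the plus strand and Spink3 on chromosome 18. All 8 are annotated as protein coding.

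The 8 genes took a large part of the gene counts of normal and PIN tissue and very little of those of PCa. Their share of all gene counts was 27.3% in WT 1, 23.1% in WT 2 and 27.1% in WT 3, with a mean of 25.8% ± 2.38 (SD, n = 3). In PIN 1, 2 and 3 it was 17.9%, 20.5% and 24.1%, with a mean of 20.8% ± 3.13 (SD, n = 3), so that PIN 3 reached above WT 2. In PCa 1 it was 0.0258% and in PCa 2 it was 0.0698%, below every other library. Without 9530053A07Rik the other 7 genes took a mean of 7.25% of the remaining counts in WT, 6.88% in PIN and 0.0379% in PCa. Fewer secretory cells and less RNA per cell cannot be told apart in bulk tissue.

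**Figure D1:**
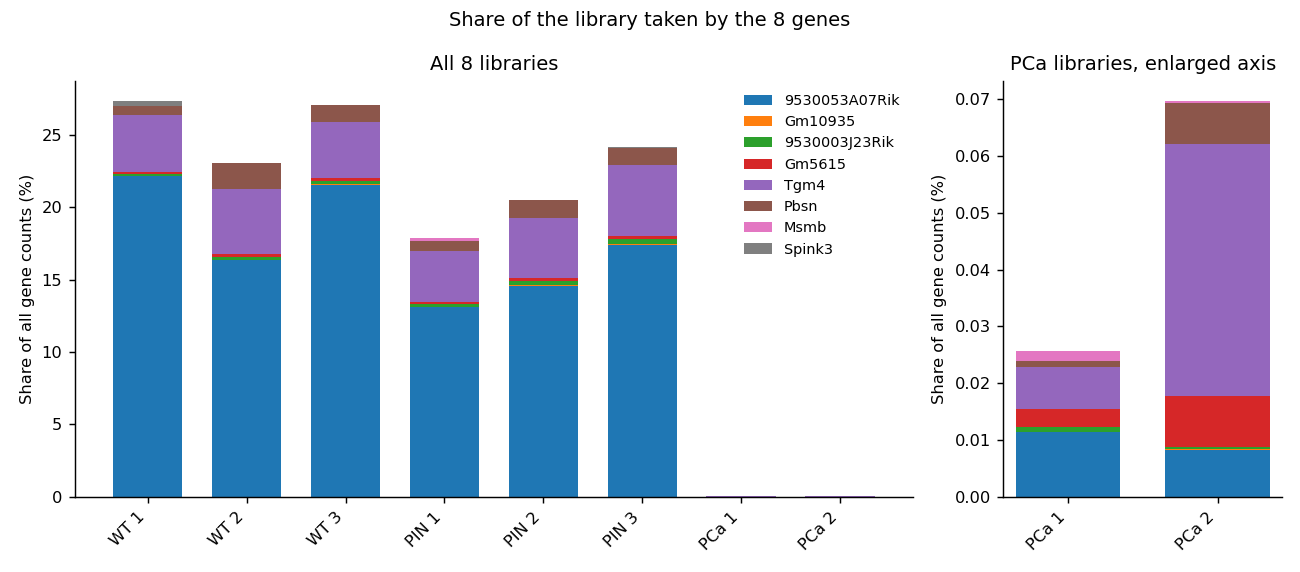
Stacked bars of the share of all gene counts (%) taken by each of the 8 genes in each library, with the PCa libraries redrawn at right on an enlarged axis. The 6 WT and PIN bars reach 17.9% to 27.3% and are mostly 9530053A07Rik, while the 2 PCa bars reach 0.0258% and 0.0698%.

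What remained in PCa had another makeup. 9530053A07Rik supplied 70.9% to 80.9% of the 8 genes' counts in WT and 71.1% to 73.2% in PIN, and it was the gene with the most counts in each of these 6 libraries. In PCa 1 it supplied 44.3% and in PCa 2 it supplied 11.9%. Tgm4 made up 14.3% to 20.3% in WT and PIN, 28.7% in PCa 1 and 63.8% in PCa 2. Counts of 9530053A07Rik per count of Tgm4 lay between 3.51 and 5.63 in WT and PIN and were 1.54 in PCa 1 and 0.187 in PCa 2.

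Per length, on the TPM scale, which divides counts by exon length, 3 genes had the highest means in WT. 9530053A07Rik had a mean level of 58888 ± 11492 TPM, Pbsn 45769 ± 21712 TPM and Tgm4 36044 ± 1885 TPM (SD, n = 3 each). Neighbours in this order overlapped between libraries, with Pbsn ranging from 23071 to 66337 TPM. Next came 9530003J23Rik at 3595 ± 1375 TPM and Gm5615 at 2779 ± 519 TPM (SD, n = 3 each), which overlapped each other and lay below every Tgm4 value. Gm10935, at 451 ± 317 TPM (SD, n = 3), lay below every Gm5615 value. Spink3 had 27069 TPM in WT 1, above Pbsn in that library, and was at 0 in WT 2 and WT 3. Msmb and Spink3 had no settled place in this order, since each spread over more than the distance between these genes.

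In PCa the order by TPM differed from that in WT and between the tumors. In PCa 1 Msmb led at 85.5 TPM, followed by Tgm4 at 54.3, Gm5615 at 37.4, Pbsn at 36.1 and 9530053A07Rik at 27.8 TPM. In PCa 2 Tgm4 led at 375.8 TPM, followed by Pbsn at 267 and Gm5615 at 126 TPM, with 9530053A07Rik at 23.4 TPM. 9530053A07Rik, first or second by TPM in every WT and PIN library, was thus behind Tgm4, Pbsn and Gm5615 in both tumors.

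9530053A07Rik, for which RefSeq gives the synonym FCGBP, had the highest counts. Its level was 237458, 216636 and 234102 normalized CPM in WT 1, 2 and 3, 128946, 141319 and 186341 in PIN 1, 2 and 3, and 86.3 and 69.7 in PCa 1 and 2. Every PCa library lay below every PIN library and every PIN library below every WT library. On the plain share of counts, without the adjusted library sizes, PIN and WT overlapped, PIN 3 being at 17.4% and WT 2 at 16.4%. The log2 fold change was -11.52 (SE 1.28) in PCa against WT, with an adjusted p of 0.00677, and -10.93 (SE 1.25) in PCa against PIN, with an adjusted p of 0.00889, where edgeR's quasi-likelihood F-test was used and p was adjusted over all tested genes by Benjamini-Hochberg. Both calls were lost with edgeR's newer quasi-likelihood method (adjusted p = 0.344 and 0.398), and that against WT also in a fit of only WT and PCa (adjusted p = 0.0728). In PIN against WT the value was -0.59, with a 95% confidence interval from -2.18 to 0.99 and an adjusted p of 1.

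Gm10935, the predicted gene within Fcgbp, had 500, 105 and 580 normalized CPM in WT, 278, 344 and 531 in PIN, and 0.289 and 0.0342 in PCa. The PCa values rest on 9 counts and 1 count, and counting error alone puts the second between 0.000866 and 0.191. WT and PIN overlapped, with WT 2 the lowest of the 6, and both PCa libraries lay far below. The fitted log2 fold change was -11.19 (SE 1.29, adjusted p = 0.00709) in PCa against WT and -11.15 (SE 1.28, adjusted p = 0.00889) against PIN. Gm10935 passed the filter on low counts only through WT and PIN, so nothing is read from these calls. The value depends on the few counts in PCa, being -13.30 against WT without PCa 1 and -10.38 without PCa 2. Fcgbp itself, which encloses Gm10935, had 18.2 and 108 normalized CPM in PCa and 118 to 228 in WT and PIN, with a log2 fold change of -1.48 in PCa against WT that did not pass (adjusted p = 0.203).

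Tgm4, the plug-forming transglutaminase, had 42198, 59615 and 41889 normalized CPM in WT, 34835, 40284 and 52411 in PIN, and 55.9 and 372 in PCa. WT and PIN overlapped and PCa lay below both, with PCa 2 at 6.66 times PCa 1. The log2 fold change was -7.81 (SE 1.19, adjusted p = 0.0123) in PCa against WT and -7.63 (SE 1.18, adjusted p = 0.0179) against PIN. The second call was lost without any 1 of the PIN libraries or without WT 3, at an adjusted p of 0.0534 to 0.0697. Both calls were lost with the newer quasi-likelihood method (adjusted p = 0.0920 and 0.116) and in a fit of only the 2 groups compared (0.0911 and 0.0602), while the direction held.

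Pbsn, the lipocalin gene, had 6539, 23922 and 12728 normalized CPM in WT, 6678, 12329 and 13072 in PIN, and 8.51 and 60.7 in PCa. All PIN values lay inside the range of WT and PCa lay below both, with PCa 2 at 7.13 times PCa 1. Its log2 fold change came to -8.70 (SE 1.33, adjusted p = 0.0123) in PCa against WT and -8.27 (SE 1.31, adjusted p = 0.0188) against PIN. The second call was lost without any 1 of the PIN libraries, at an adjusted p of 0.0501 to 0.0697. Both calls were lost in a fit of only the 2 groups compared (adjusted p = 0.0778 and 0.0517).

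9530003J23Rik, the lysozyme-like gene, had 1147, 2507 and 2438 normalized CPM in WT, 1634, 2692 and 3662 in PIN, and 6.87 and 4.21 in PCa. PIN overlapped WT and reached above it, and both tumors lay below. Fitted log2 fold changes were -8.52 (SE 0.76, adjusted p = 0.00461) in PCa against WT and -8.91 (SE 0.77, adjusted p = 0.00563) against PIN.

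Gm5615, the gene with a stretch like Pate4, had 1606, 2923 and 2093 normalized CPM in WT, 1566, 1889 and 2398 in PIN, and 22.9 and 74.3 in PCa. WT and PIN overlapped and PCa lay below, again with PCa 2 the higher tumor. The log2 fold change was -5.50 (SE 0.69, adjusted p = 0.00816) in PCa against WT and -5.33 (SE 0.68, adjusted p = 0.0114) against PIN, the smallest among the 6 genes that were called. The call against WT was lost in a fit of only WT and PCa (adjusted p = 0.0566).

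**Figure D2:**
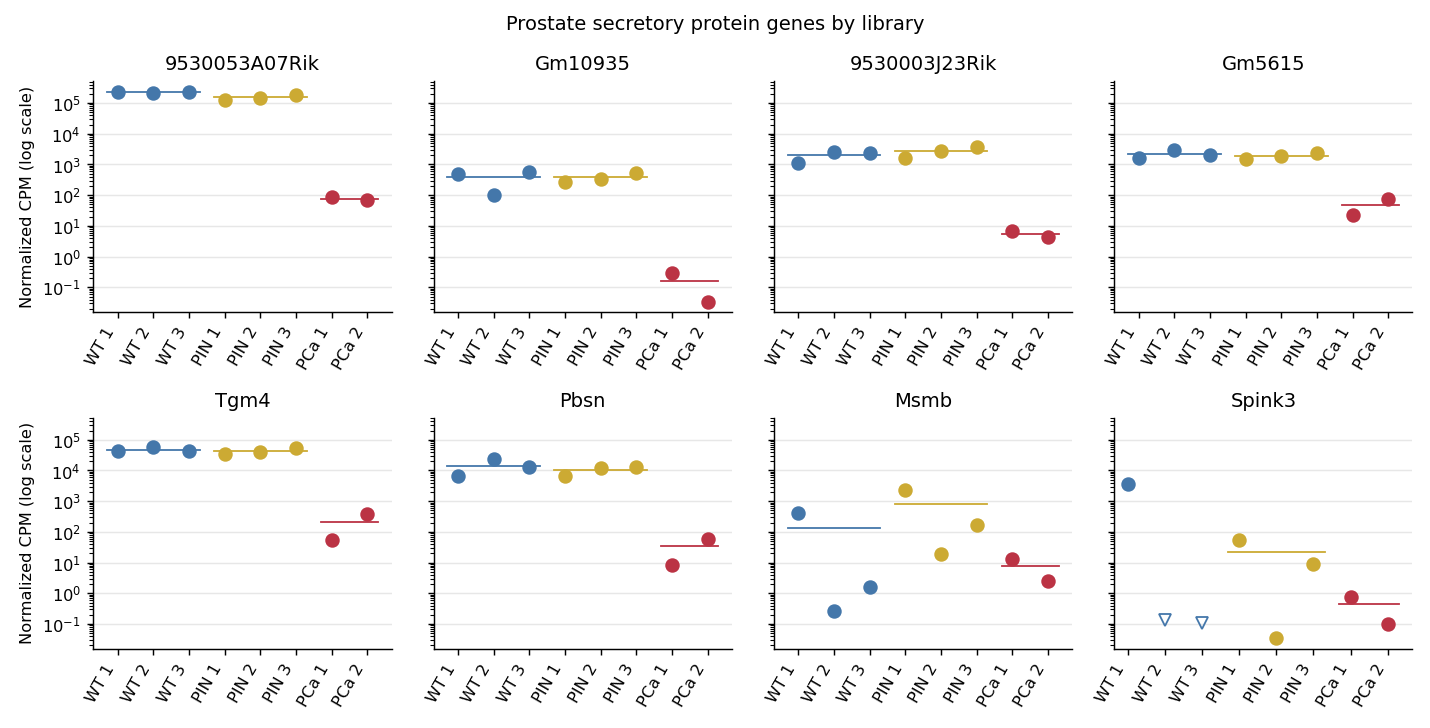
Normalized CPM on a log scale for each of the 8 genes in the 8 libraries, as points colored by group, with a line at the group mean where no library is at 0 and open triangles at the level of 3 counts for libraries with 0 counts. In 6 panels the PCa points lie below all WT and PIN points, whereas Msmb and Spink3 spread widely within WT and PIN.

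Msmb and Spink3 differed from the other 6 genes in that replicates within WT and within PIN were far apart. Msmb had 404, 0.271 and 1.57 normalized CPM in WT, 2273, 19.1 and 164 in PIN, and 13.1 and 2.53 in PCa. PCa lay inside the range of WT and below every PIN library. The fitted log2 fold change was -4.11 (SE 3.07, adjusted p = 0.431) in PCa against WT and -6.71 (SE 3.51, adjusted p = 0.303) against PIN, so neither passed the test. Without PIN 1 the value against PIN was -3.53.

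Spink3 had 3589 normalized CPM in WT 1 and 0 counts in WT 2 and WT 3, which allow up to 0.136 and 0.110 normalized CPM at a limit of 3 counts. In PIN it had 55.9, 0.0344 and 9.25 normalized CPM, and in PCa it had 0.771 and 0.103. All groups overlapped, and WT 1 stood alone. Fitted log2 fold changes were -11.39 (SE 5.58, adjusted p = 0.232) in PCa against WT and -5.61 (SE 4.43, adjusted p = 0.499) against PIN. Without PIN 1 the value against PIN was -3.36. Without WT 1 the PCa against WT difference changed sign for both genes, to 3.06 for Msmb and 6.62 for Spink3.

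WT 1 also held high levels of seminal vesicle genes. The summed level of the 8 listed genes (Svs1, Svs2, Svs3a, Svs3b, Svs4, Svs5, Svs6 and Pate4) was 15885 normalized CPM in WT 1, with none of them at 0, and 0.633 and 0.767 in WT 2 and WT 3, with 6 and 5 of the 8 at 0. In PIN the sum was 56.2 to 96.2, with 1 or 2 of the 8 at 0, and it was 4218 in PCa 1 and 1260 in PCa 2. In WT the library with high Msmb and Spink3 was thus the one with high seminal vesicle genes, but in PCa, where those genes were also high, Spink3 was below 1 normalized CPM. Of the tumors, PCa 1 had the higher seminal vesicle sum and also the higher Msmb and Spink3. The part of seminal vesicle RNA in the Msmb and Spink3 values was not tested. The other 6 genes in WT 1 lay within a factor of 3.66 of both other WT libraries, except Gm10935, for which WT 2 was the low library.

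Of the 8 genes, 6, Gm10935 among them, were called lower in PCa than in WT, the limits of a call being an adjusted p of 0.05 and a 1-unit difference in log2, where 4.18% of all tested genes were called lower. The same 6 were called lower in PCa than in PIN, where 3.17% of all tested genes were called lower, and the 2 comparisons share the PCa libraries. Gm10935 and Spink3 passed the filter only through WT and PIN, and of the other 6 genes 5 were called in each comparison. In both, 4 of the 8 were called with edgeR's newer quasi-likelihood method, and in a fit of only the 2 groups compared 2 were called against WT and 4 against PIN. The median log2 fold change of the 8 genes was -8.61 in PCa against WT and -7.95 against PIN, beside 0.01 and 0.07 over all tested genes. In both PCa libraries, 6 of the 8 lay below every WT library, as did 19.6% of all tested genes, and 7 of the 8, Msmb added, lay below every PIN library, as did 23.2% of all tested genes. As the genes were named with these results known, the counts describe them and no more.

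In PIN against WT, 0 of the 8 genes and 0% of all tested genes were called with edgeR, while 492 genes had an unadjusted p under 0.05 and DESeq2 called 39 genes (0.278%). None of these 39 was among the 8, of which Spink3 was given no adjusted p by DESeq2. The intervals were wide enough to leave sizeable differences undetected. The 95% interval of the log2 fold change ran from -1.88 to 1.53 for Tgm4, from -2.26 to 1.40 for Pbsn and from -0.66 to 1.44 for 9530003J23Rik. 9530053A07Rik was the only 1 of the 8 for which every PIN library lay below every WT library, as 6.38% of all tested genes did.

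**Figure D3:**
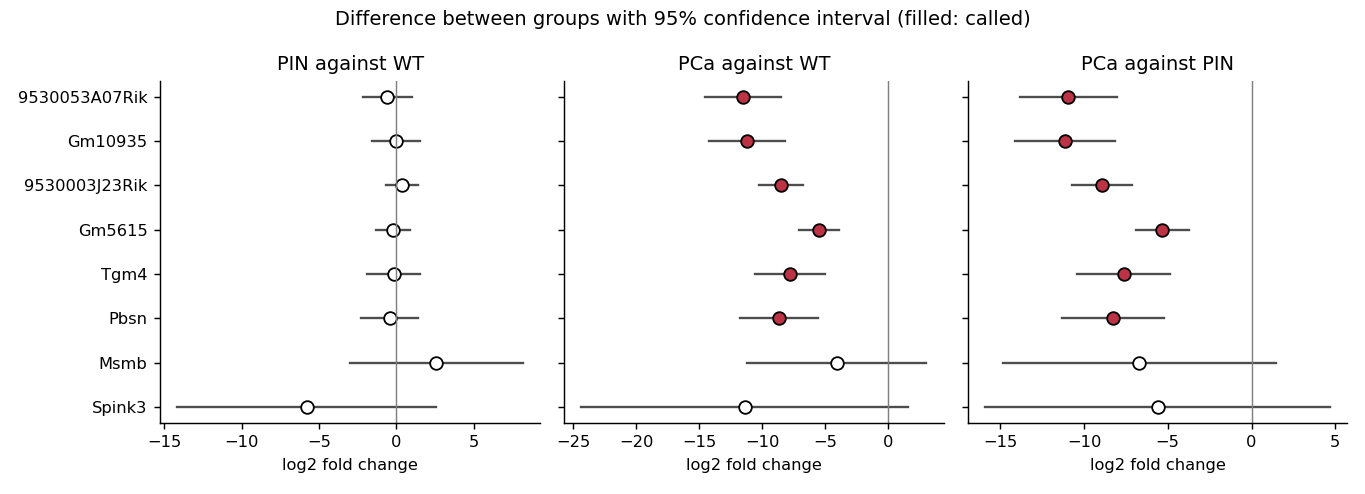
Fitted log2 fold change (point) with its 95% confidence interval (line) for each gene in each of the 3 comparisons, with a filled point where the gene was called. The 6 called genes lie between -11.52 and -5.33 in the PCa comparisons, no gene is called in PIN against WT, and the intervals of Msmb and Spink3 cross 0 throughout.

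The fall in PCa was uneven between genes and tumors. In PCa 1 the 6 called genes lay at log2 ratios of -11.38 to -6.59 to the WT mean, a 27.6-fold spread in how far each was below it. In PCa 2 these ratios were -13.49 to -4.89, a 389-fold spread whose low end is Gm10935 and rests on 1 count. Without Gm10935 the PCa 2 ratios were -11.68 to -4.89, a 111-fold spread, and those of PCa 1 were as before. Tgm4, Pbsn and Gm5615 were higher in PCa 2 than in PCa 1, by 6.66, 7.13 and 3.25 times. 9530053A07Rik and 9530003J23Rik were at 0.808 and 0.612 times their PCa 1 level in PCa 2, and Gm10935, with 9 counts and 1 count, at 0.118 times. With 2 tumors these differences between animals have no test. Leaving out either tumor moved the values. Against WT, Tgm4 was at -7.00 without PCa 1 and -9.73 without PCa 2, Pbsn at -7.88 and -10.71, and Gm5615 at -4.88 and -6.57.

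Within the PIN group the 6 genes kept 1 order of libraries by normalized CPM, each being lowest in PIN 1 and highest in PIN 3. By the plain share of counts Pbsn was higher in PIN 2 (1.27%) than in PIN 3 (1.22%). In WT they did not, as by normalized CPM WT 2 had the most Tgm4, Pbsn, Gm5615 and 9530003J23Rik and the least 9530053A07Rik and Gm10935. The plain share of counts of 9530003J23Rik was higher in WT 3 (0.224%) than in WT 2 (0.189%). Tgm4 per Pbsn, as a ratio of TPM, was 0.571 to 1.48 in WT, 0.749 to 1.20 in PIN, and 1.50 and 1.41 in PCa 1 and 2, a small range beside the change in either gene.

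Other secretory genes of the prostate did not move as a block. Of 19 table entries for 18 listed symbols, 17 were tested, and in each PCa comparison 2 were called lower and 0 higher. Over all tested genes 4.18% were called lower and 4.35% higher in PCa against WT, and 3.17% and 2.55% against PIN, and with 17 genes nothing particular to the list is read from its 2 calls. The median log2 fold change of the list was 1.08 in PCa against WT and 0.64 against PIN. The list contains genes such as Clu that other cells also make. Fgl1, for a secreted fibrinogen-like protein, had 278 to 1023 normalized CPM in WT, 227 to 442 in PIN, and 0.707 and 0.411 in PCa, with a log2 fold change of -10.03 (SE 0.90, adjusted p = 0.00461) in PCa against WT and -9.13 against PIN. The other gene called was Azgp1, for the secreted zinc-alpha-2-glycoprotein, at -1.67 (adjusted p = 0.0235) and -1.78 (adjusted p = 0.0276). The PCa values of Fgl1 lay below all WT and PIN values, but they rest on 22 and 12 counts, and like Gm10935 it passed the filter only through WT and PIN, so nothing is read from its calls.

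Pnliprp1, for a pancreatic lipase-related protein, had a log2 fold change of -6.71 in PCa against WT and -7.01 against PIN. It just missed the threshold in both (adjusted p = 0.0512 and 0.0572). Its level was 0.964 normalized CPM in PCa 1 and 17.9 in PCa 2. When 1 library was left out, the value ranged from -9.98 to -5.77 against WT and from -10.27 to -5.98 against PIN. Sbp, for the spermine-binding protein, had 9534, 0.0905 and 0 normalized CPM in WT 1, 2 and 3, 0.344 to 14.4 in PIN, and 5773 and 76.1 in PCa 1 and 2. It did not follow the 6 falling genes, since PCa 1 was its second highest library, and like Msmb and Spink3 it was high in WT 1 alone among the WT libraries. Its log2 fold change was 8.59 in PCa against PIN (adjusted p = 0.278, and 3.35 without PCa 1) and -8.71 in PIN against WT (adjusted p = 1). Its neighbour in name Sbpl was at 7.07 in PCa against PIN (adjusted p = 0.331) and -6.70 in PIN against WT (adjusted p = 1). The most positive fitted values of the list in PCa against WT, of Spink11 at 6.25 (adjusted p = 0.149) and Wfdc15b at 6.04 (adjusted p = 0.0913, and 2.41 to 10.02 when 1 library was left out), did not pass either, nor did those in PIN against WT, of Spink11 at 7.83 and Wfdc10 at 7.50 (adjusted p = 1).

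Of the 12 listed genes of androgen response, all of which were tested, 1 was called higher in PCa against WT, where 4.35% of all tested genes were, and 0 higher in PCa against PIN, where 2.55% of all tested genes were. None was called lower in any comparison, beside 4.18% of all tested genes in PCa against WT and 3.17% against PIN, and nothing is read from that 0 in a list this short. The median log2 fold change of the list was -0.49 in PCa against WT and -0.30 against PIN.

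Fkbp5, a co-chaperone gene induced by androgens and glucocorticoids, was the one called, with 51.9 to 103 normalized CPM in WT, 112 to 453 in PIN, and 1091 and 236 in PCa. It had a log2 fold change of 3.07 (SE 0.75, adjusted p = 0.0455) in PCa against WT, and the call was lost in 10 of 19 alternatives, among them leaving out any library but PCa 2. Without PCa 1 the value was 1.59 (adjusted p = 0.137). Tmprss2, an androgen-induced serine protease gene, was at -2.33 in PCa against WT and -2.19 against PIN (adjusted p = 0.0774 and 0.107). Hoxb13 was at -2.03 in PCa against WT (adjusted p = 0.114), a gene for a prostate transcription factor. Both rest on which tumor is used. Without PCa 1, Hoxb13 was at -4.01 (adjusted p = 0.00197) and Tmprss2 at -3.93 (adjusted p = 0.00587) in PCa against WT, and both were called, while without PCa 2 they were at -1.21 and -1.57 and were not. Homer2 had the values 2.17 in PCa against WT and 2.91 against PIN (adjusted p = 0.0857 and 0.0509). In PIN against WT the most positive value was 1.76, for Fkbp5, and the most negative were -0.82, for Ell2, and -0.74, for Homer2, each at an adjusted p of 1.

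Markers of cell types were set beside the secretory genes. Of 8 luminal epithelial genes 0 were called in any comparison, from which nothing is read as 4.18% of all tested genes were called lower and 4.35% higher in PCa against WT and 3.17% and 2.55% against PIN. Their summed level was 3924 to 9846 normalized CPM in WT, 3891 to 5098 in PIN, and 5387 and 2868 in PCa 1 and 2. None of them was at 0 in any library. All 6 smooth muscle genes, which include Acta2 and Myh11 of the contractile apparatus, were called lower in PCa, against 4.18% of all tested genes in the comparison with WT and 3.17% in that with PIN. Their summed level was 2017 to 4854 normalized CPM in WT, 3191 to 5848 in PIN, and 42.4 and 19.7 in PCa. Cnn1 of this list had 2.15 and 0.616 normalized CPM in PCa and passed the filter only with WT and PIN. Nothing is read from its calls. Smooth muscle genes thus moved with the 6 secretory genes, and their part in the result was not tested. The tumors differed in the luminal sum, which in PCa 1 was above every PIN library and inside the range of WT and in PCa 2 was below every WT and PIN library. The 8 secretory genes summed to 195 normalized CPM in PCa 1 and 584 in PCa 2, against 176265 or more in each WT and PIN library. The part of luminal cell number in this was not tested.

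**Figure D4:**
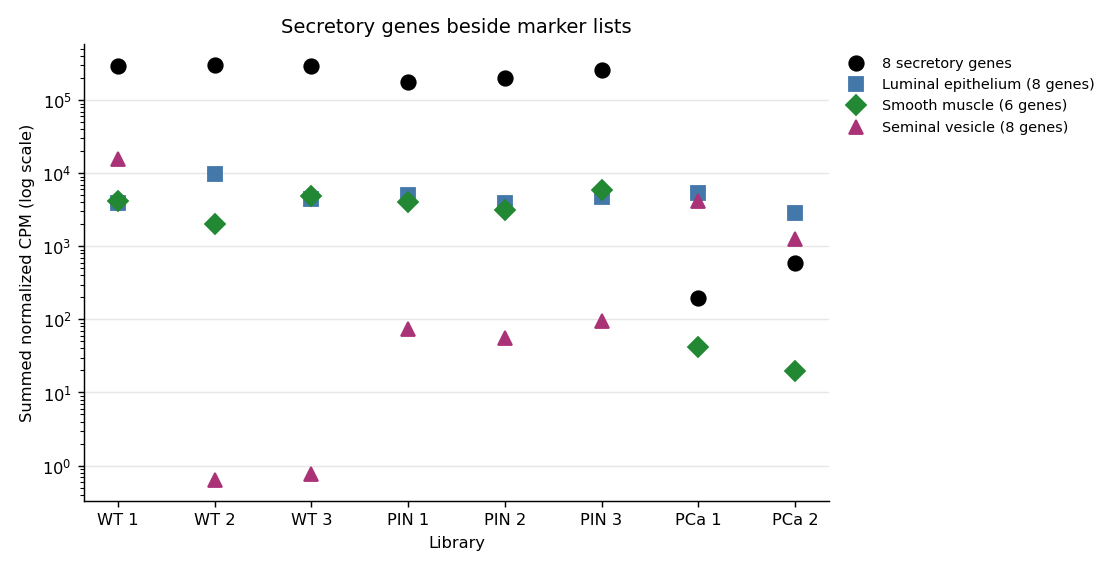
Summed normalized CPM per library on a log scale for the 8 secretory genes and for the listed luminal epithelial, smooth muscle and seminal vesicle genes. From WT and PIN to PCa the secretory sum goes from 176265 or more to 195 and 584 and the smooth muscle sum from 2017 or more to 42.4 and 19.7, while the luminal sum stays between 2868 and 9846.

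Of the listed basal (5), fibroblast (5), leukocyte (5 of 6 tested), endothelial (4) and neuroendocrine (3 of 4 tested) genes, 0 were called in any comparison. Since at most 4.35% of all tested genes were called in either direction of a comparison, nothing is read from a 0 in lists this short. In PCa 1 and PCa 2 the summed levels were 609 and 28.0 normalized CPM for basal genes and 358 and 28.8 for leukocyte genes. For both lists PCa 1 lay above and PCa 2 below every WT and PIN library. Fibroblast genes summed to 489 to 836 in WT, 657 to 810 in PIN and 259 to 674 in PCa, which overlapped both. Endothelial genes summed to 12.7 to 85.6 in WT, 69.5 to 94.5 in PIN and 104 to 146 in PCa. Both tumors lay above all other libraries in this sum, but not for any single gene of the list. Nothing is read from the sum. Neuroendocrine genes summed to 5.02 to 24.7 in WT, 23.2 to 36.6 in PIN and 9.07 to 9.44 in PCa. Both tumors thus lay below every PIN library and inside the range of WT. Ncam1 alone supplied most of this sum, at 21.9 to 35.6 in PIN and 7.26 and 8.83 in PCa. Nothing is read from the sum for the list as a whole. The part of these cells in the secretory result was not tested.

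The genes most like the mean profile of the 8, after centring each on its own mean of log2 CPM over the 8 libraries, were D16H22S680E (r = 0.994), Ckm (0.985), Lrpap1 (0.983), Mmp17 (0.983) and Rspo2 (0.982). These correlations over 8 libraries rest on the gap between the 2 PCa libraries and the rest. The genes alike in profile were not alike in size of difference. D16H22S680E had 33.4 to 40.1 normalized CPM in WT and 23.4 and 22.6 in PCa, and Lrpap1, for a chaperone of lipoprotein receptors, had 77.1 to 88.1 in WT and 48.1 and 48.4 in PCa. Ckm, for muscle creatine kinase, had 2.99 to 9.13 in WT and 0.0321 and 0.0342 in PCa, which is 1 count in each tumor. Over the 6 WT and PIN libraries alone, other genes were most alike, namely Cds1 (r = 0.994), Pigs (0.990), Ptgds (0.988), Lrrc28 (0.986) and Trpv6 (0.985), and there Msmb and Spink3, with their wide spread, weigh most in the mean profile.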

How the data were processed

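Total RNA of 8 tissues was depleted of ribosomal RNA and sequenced, and the authors deposited counts per gene that had not been normalized. The labels and methods name cutadapt 1.9.1 for trimming, HISAT2 2.1.0 for alignment to mm9 and HTSeq 0.6.1 for counting; the strand setting and annotation are not given in the sources used here. The exon length deposited beside the counts, another kind of value, was used for TPM.

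Counts were tested with edgeR 4.0.16 in R 4.3.3 (quasi-likelihood F-test, trimmed mean of M-values) in 1 model of 8 libraries and 3 groups with 5 residual degrees of freedom. Genes with CPM above 1 in at least 2 libraries were kept. The limits of a call were an absolute log2 fold change of 1 and an adjusted p of 0.05 (Benjamini-Hochberg over all tested genes in a comparison). The common biological coefficient of variation was 0.489. All 8 secretory genes passed the filter, and Gm10935 and Spink3 were not above 1 CPM in either PCa library. The steps were tested on simulated data. Counting intervals are exact binomial intervals at 95%, and they and the limit of 3 counts cover counting error only. Transcript similarity was found with blastn 2.17.0.

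The genes and lists were chosen with earlier results of these data known. Genes outside the 8 are named as the 2 highest and the 2 lowest fold changes of each list in each comparison and the 5 most alike in profile, except that 2 genes of the lists are not reported here. Krt8, Fcgbp, Azgp1, Acta2, Myh11, Cnn1 and Ncam1 were named after their values were seen. The p-values measure the spread between animals, 2 of them in PCa. Alternatives were upper-quartile and DESeq2 size factors, library totals, the 8 genes left out of the normalization, no filter, filterByExpr, a replicate block, the newer quasi-likelihood method, only the 2 groups compared, limma-trend (limma 3.58.1), DESeq2 1.42.0, and leaving out each library.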

Additional observations from a re-analysis of the deposited data

How the results depend on the processing

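The direction of the 6 called genes in both PCa comparisons held in all 19 alternatives, which for Gm10935 says nothing of stability since it passed the filter only through WT and PIN. The calls held less often. In PCa against WT the newer quasi-likelihood method lost 9530053A07Rik (adjusted p = 0.344) and Tgm4 (0.0920), and a fit of only the 2 groups left 2 of the 6, losing 9530053A07Rik (0.0728), Gm5615 (0.0566), Tgm4 (0.0911) and Pbsn (0.0778). Leaving out 1 WT or PIN library lost no call there, and nothing is read from this for Gm10935. In PCa against PIN the newer method lost 9530053A07Rik (0.398) and Tgm4 (0.116), the fit of 2 groups lost Tgm4 (0.0602) and Pbsn (0.0517), and DESeq2 added Msmb (0.0437). Leaving out a PCa library leaves 1 tumor, which is assumed to vary like the other groups. The cause of these losses was not tested.

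The replicate numbers do not mark shared animals, and same-numbered libraries did not all deviate together (correlations from -0.0562 to 0.284), so they were not treated as pairs. A replicate block gave 6 of the 8 genes called in PCa against WT, 5 in PCa against PIN (losing Tgm4, adjusted p = 0.0534) and 0 in PIN against WT, with 413, 151 and 0 genes called in all. In PIN against WT it put Gm10935 at 0.30 and Sbpl at 0.31.

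Counts over all genes depended more on the setting. Against 1198 in PCa against WT, 130 genes were called with 2 groups only, 2355 with library totals and 2487 with DESeq2, and 347 to 2477 when 1 library was left out. Against 803 in PCa against PIN, 388 were called with 2 groups only and 1984 with DESeq2, and 78 to 2251 when 1 library was left out. In PIN against WT the newer method called 1 gene and DESeq2 39. Library totals gave 1966 higher and 389 lower in PCa against WT, where the main split was 611 and 587, and 762 and 320 in PCa against PIN, where it was 358 and 445. They moved the median log2 fold change of all genes from 0.01 to 0.55, from 0.07 to 0.41 and, in PIN against WT, from -0.02 to 0.18. In PCa against PIN the split was 358 and 643 with limma-trend and 28 and 123 with the block.

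As a share of TPM the 8 genes took 15.7% in WT and 13.4% in PIN, and without 9530053A07Rik the other 7 took 7.25% and 6.88% of the remaining counts. In PIN against WT, where no difference passed, signs turned with library totals for Gm10935 (0.069), Gm5615 (0.037) and Tgm4 (0.034) and with limma-trend for Gm10935 (0.25) and Spink3 (0.50). When 1 library was left out, PIN against WT log2 fold changes ranged from -0.49 to 0.35 for Gm10935, -0.36 to 0.077 for Gm5615, -0.35 to 0.016 for Tgm4, -0.77 to 0.15 for Pbsn, -0.58 to 9.76 for Msmb, -8.03 to 12.23 for Spink3, -9.57 to 7.38 for Sbp, -7.65 to 9.53 for Sbpl and -1.33 to 0.16 for Homer2. In PCa against WT they ranged from -5.73 to 3.06 for Msmb, -13.44 to 6.62 for Spink3 and -5.15 to 11.51 for Spink11, and in PCa against PIN from -3.75 to 8.09 for Sbpl and -0.17 to 2.04 for Fkbp5. Of the other listed genes that missed a call, Homer2 was called in 3 of 19 alternatives in PCa against WT and 7 of 19 against PIN, Pnliprp1 in 7 and 5, Tmprss2 in 3 and 2, and, against WT, Hoxb13 and Wfdc15b in 2 each and Spink11 in 1 of 18, and Wfdc10 in 1 of 19 in PIN against WT. Depth limits Gm10935 and Spink3, which rest on 1 to 24 counts in PCa.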
